A study of Mus musculus with 8 samples.

Results

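TECs cultured for 3 days as organoids (D3 organoids) were compared with TECs cultured for 3 days as a 2D monolayer, so that the age of the culture was the same and its format differed. The 4 libraries of these cultures, 2 of D3 organoids and 2 of 2D cells, are all the libraries of those groups among the 8 of the study, and were chosen by their labels. All cells were wild-type, untreated by label, EpCAM+ and sorted from thymi of E16.5 C57BL/6J embryos. D3 organoids grew in growth factor-reduced Matrigel and were freed from the gel in cold PBS before lysis. The 2D cells grew on laminin-coated plates and were lysed directly, at the point when the monolayer had become confluent. By the study's methods the TEC medium held FGF7, a ligand of the receptor FGFR2b, and a ROCK inhibitor, which relaxes actomyosin, was present until day 2 of organoid culture. Sorted cells were collected in medium with the inhibitor. The 2D cells were kept in TEC medium, and whether the inhibitor was also present during their culture is not given in the sources used here. Dimensionality, substrate, cell density, the manner of harvest and possibly the inhibitor differed together, and cannot be told apart here. The other 4 libraries, 2 of TECs lysed straight after sorting (*in vivo*) and 2 of organoids at day 7 (D7 organoids), share the fit and are given beside the results for reference.

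TECs form the epithelial scaffold of the thymus, where they attract blood-borne progenitors, supply Notch ligands and cytokines, and present self-peptides to developing T cells. FOXN1 is the transcription factor on which their thymic function rests. Epithelial cells spread on a flat and stiff surface assemble actin stress fibres and adhesion plaques. From the actin cytoskeleton, signals reach the nucleus through SRF with its cofactors of the MRTF family, whose DNA site is the CArG box, and through YAP and TAZ, which act with the TEAD factors. A basement membrane gel such as Matrigel is soft and lets epithelial cells form rounded colonies.

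The RNA of each library was counted from the 3′ ends of polyadenylated transcripts, and a level is given as CPM, the count scaled by library size and TMM factor. Total counts were 6070767 and 6136660 in 2D and 5639934 and 6561971 in D3 organoids. At this depth 3 counts, taken as the floor of detection in a library, correspond to between 0.416 and 0.547 CPM. The 18S ribosomal RNA gene took 22.5% and 24.3% of counts in 2D against 17.5% and 16.6% in D3 organoids. Mitochondrial genes took 4.39% and 6.15% in 2D against 9.46% and 8.81% in D3 organoids. Without ribosomal RNA and mitochondrial genes, 2926 genes were higher and 2857 lower in D3 organoids, against 2839 and 2885 with them. Replicates differed by more than sampling noise in both groups (chi-square per degree of freedom 8.65 in D3 organoids and 8.70 in 2D). The label of the cells was checked against defining TEC genes. *Epcam* and the thymic transcription factors *Pax1* and *Pax9* were detected at over 100 CPM in all 4 cultures. *Foxn1* was low, and *Psmb11* and *Dll4* were too low to be tested, in both formats at day 3.

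Of 13862 genes tested with edgeR's quasi-likelihood test, 2839 were higher in D3 organoids than in 2D (20.5%) and 2885 were lower (20.8%), at an adjusted p of at most 0.05. Together 41.3% of the genes tested were called, and this is the share against which each count below should be read. The difference was at least 2-fold for 2031 of the genes called higher and 1844 of those called lower, and at least 8-fold for 573 and 564. Both libraries of 1 group lay above both of the other for 71.1% of all genes, and for 5720 of the 5724 called. An exact test on 2 against 2 libraries cannot give a p below 0.333, so the calls rest on the spread shared across genes and groups in the edgeR fit. If libraries were scaled by their total counts alone, the median log2 fold change of all genes moved from -0.00 to 0.25, and the split became 3893 higher and 2023 lower. Fold changes below are relative to the TMM scale, as log2 of D3 organoids over 2D with the SE of the fit. Where few members of a list went 1 way, they are named after their values were seen.

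**Figure D1:**
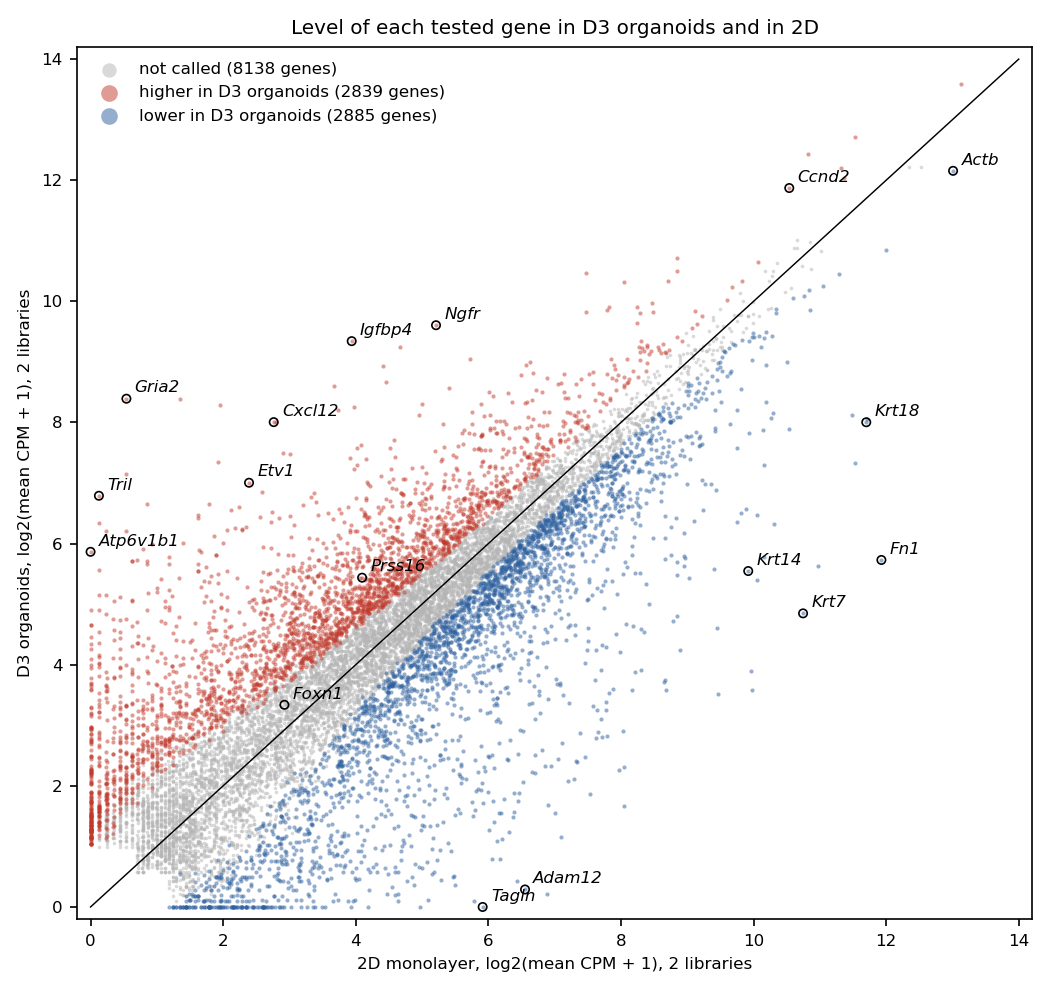
Mean level of each tested gene, as log2(mean CPM + 1), in the 2 libraries of 2D (horizontal axis) and the 2 libraries of D3 organoids (vertical axis), with the diagonal marking equal levels. The axes end just above 14, which leaves the 18S and 1 mitochondrial ribosomal RNA gene out of view. Red points are the 2839 genes called higher in D3 organoids and blue points the 2885 called lower. *Fn1* and *Krt7* lie far below the diagonal, *Gria2* and *Ngfr* far above it, and *Foxn1* near it.

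The genes with the largest gain in organoids were nearly silent in the monolayer. *Gria2*, which encodes a subunit of AMPA-type glutamate receptors, was measured at 298 and 372 CPM in D3 organoids and 0.179 and 0.73 CPM in 2D (log2 fold change 9.47, SE 0.35, adjusted p = 2.3e-11). *Atp6v1b1* (chr6:83719967-83735837 in GRCm39), a subunit of the vacuolar proton pump, stood at 52.1 and 62.4 CPM in D3 organoids and had no count in either 2D library, so it was at least 105-fold higher (adjusted p = 1.9e-09). The neighbouring sulfotransferase genes *Hs3st3a1* and *Hs3st3b1*, whose products modify heparan sulfate, had no count in 2D either. *Hs3st3a1* was at 32 and 25.6 CPM in D3 organoids, at least 53.1-fold higher, and *Hs3st3b1* at 25 and 23.6 CPM, at least 44.7-fold higher. *Hmx1*, a homeobox transcription factor gene, was likewise without a count in 2D and at 18.7 and 23.3 CPM in D3 organoids (at least 38.6-fold). *Tril*, a leucine-rich repeat partner of Toll-like receptors, was at 123 and 96.2 CPM against 0 and 0.182 CPM, with 1 count in all over the 2D libraries. *Ush1c*, *Pou2af1*, *Chst9*, *Ifi206* and *Ifi208* were also among the 12 genes with the largest increase. For these 12 genes the D3 organoid libraries all lay above 10 CPM and the groups did not overlap, which the rule that named them required. The 3′ ends of *Ifi206* and *Ifi208* share 26.3% and 22.8% of their 50-base words with related genes, so their counts are uncertain.

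The genes with the largest loss were in turn nearly silent in organoids. *Tagln* (chr9:45840909-45847404), which encodes the actin-binding protein transgelin of contractile cells, was at 53.8 and 64.8 CPM in 2D and had no count in D3 organoids, a fall of at least 129.5-fold (adjusted p = 5.6e-09). *Pappa* encodes a protease that cleaves the IGF-binding protein IGFBP4, and it too had no count in D3 organoids against 31.2 and 29.6 CPM in 2D (at least 66.4-fold, adjusted p = 3.1e-07). Its substrate gene *Igfbp4* went the other way, from 9.33 and 19.3 CPM in 2D to 574 and 723 CPM in D3 organoids (log2 fold change 5.50, SE 0.26, adjusted p = 1.5e-10). *Adam12*, a membrane metalloprotease gene, fell from 92.8 and 93.1 CPM to 0.167 and 0.277 CPM, and *Dgkk*, a diacylglycerol kinase gene, from 113 and 121 CPM to 0.333 and 0 CPM. The mechanically gated channel gene *Piezo2*, the lipoprotein lipase inhibitor gene *Angptl4*, the sphingosine-1-phosphate receptor gene *S1pr1* and the lactate exporter gene *Slc16a3* also belonged to the 12 genes with the largest decrease. *Piezo2* was at 72.1 and 98.9 CPM in 2D and 0 and 0.693 CPM in D3 organoids, *Angptl4* at 40.9 and 25 CPM in 2D and 0.167 and 0 CPM in D3 organoids, *S1pr1* at 17.9 and 11.9 CPM in 2D and 0.167 and 0 CPM in D3 organoids and *Slc16a3* at 42.2 and 66.2 CPM in 2D and 0 and 0.139 CPM in D3 organoids. None of these 4 genes exceeded 5 counts in a D3 organoid library. *Ifi205*, *Ifi211*, *Acsbg1* and *Tmprss11e* made up the rest of that set.

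Measured in CPM rather than in folds, and outside ribosomal RNA and mitochondrial genes, the largest losses included those of fibronectin, of several cytoskeletal genes and of an annexin. *Fn1* (chr1:71624673-71692419), the gene of fibronectin, was at 3062 and 4732 CPM in 2D and 44 and 60.2 CPM in D3 organoids (log2 fold change -6.22, SE 0.24, adjusted p = 2.3e-11). *Krt18*, a keratin of simple epithelia, fell from 3549 and 3104 CPM to 263 and 249 CPM (log2 fold change -3.70, SE 0.15, adjusted p = 4.9e-11). *Tpm1*, a tropomyosin gene, was at 3408 and 3304 CPM in 2D and 301 and 231 CPM in D3 organoids. *Anxa1*, an annexin gene, was at 3349 and 2573 CPM in 2D and 176 and 143 CPM in D3 organoids (log2 fold change -4.22, SE 0.26, adjusted p = 3.6e-09). *Actb*, the gene of cytoplasmic beta-actin, fell by less, from 8441 and 8051 CPM to 4744 and 4377 CPM (log2 fold change -0.85, SE 0.14, adjusted p = 9.8e-05). Outside the mitochondrial genes the largest gain in CPM was that of *Ccnd2*, a D-type cyclin of G1 phase, which stood at 3818 and 3672 CPM in D3 organoids and 1514 and 1459 CPM in 2D (log2 fold change 1.33, SE 0.14, adjusted p = 8.7e-07). *Ngfr*, the low-affinity neurotrophin receptor gene, rose from 32.8 and 39.2 CPM to 768 and 788 CPM (log2 fold change 4.43, SE 0.18, adjusted p = 4.8e-11), and *Wfdc2*, a secreted protease inhibitor gene, from 239.9 and 210.0 CPM to 877 and 1033 CPM (log2 fold change 2.09, SE 0.15, adjusted p = 2.1e-08). In each of these genes both D3 organoid libraries lay on the same side of both 2D libraries.

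**Figure D2:**
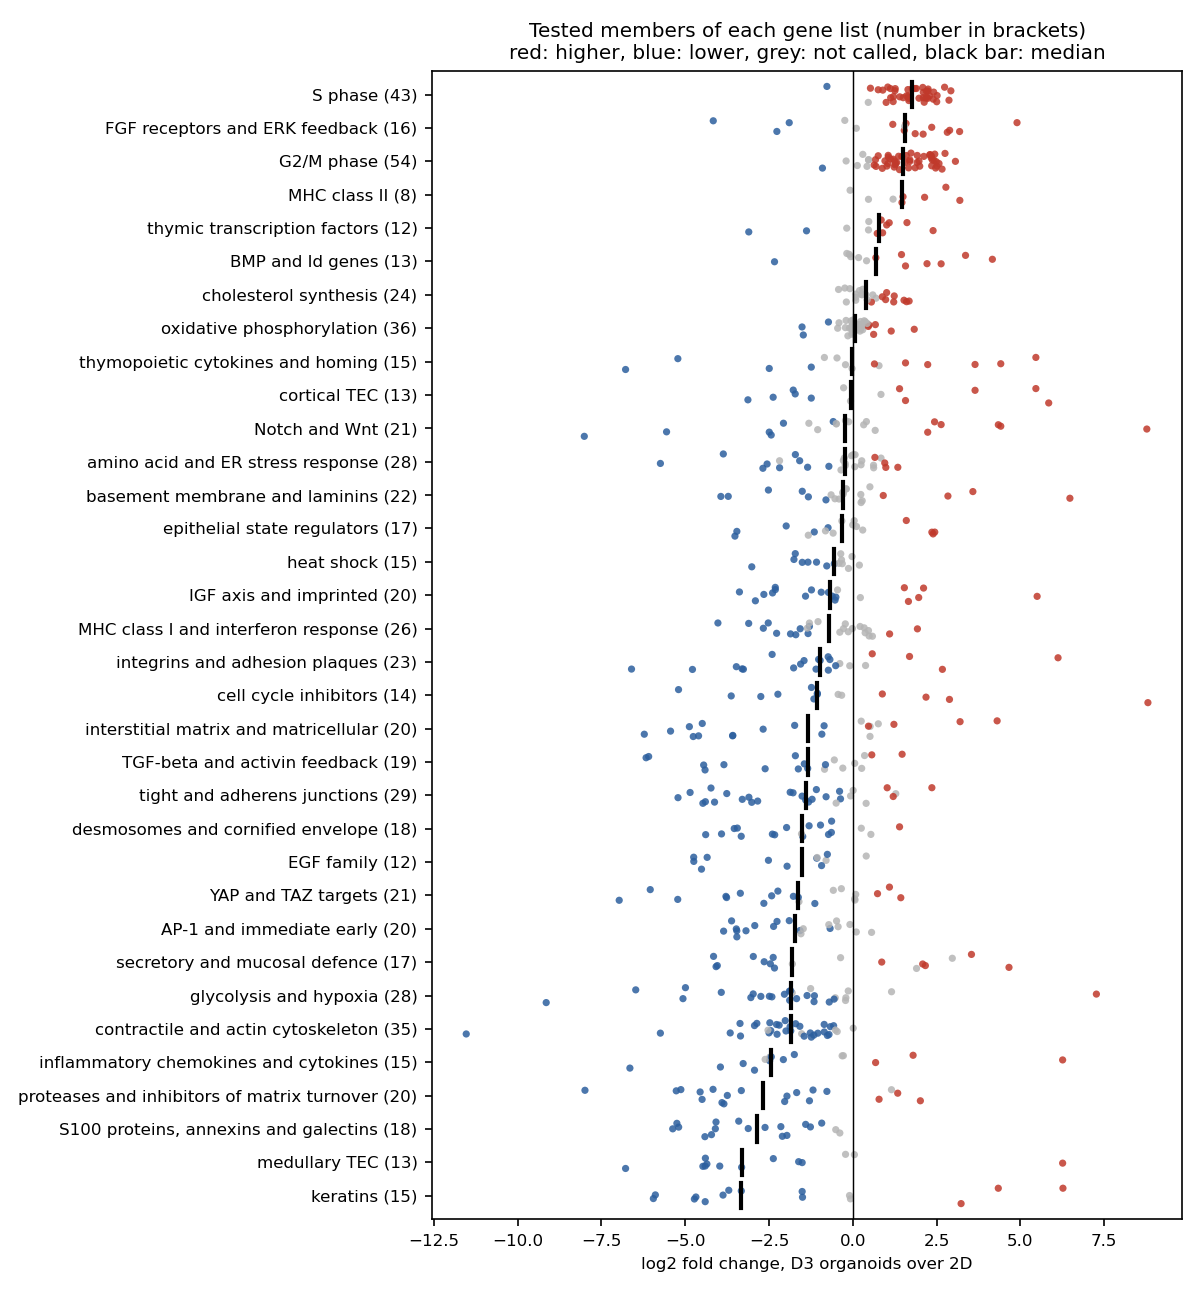
Log2 fold change of D3 organoids over 2D (horizontal axis) for the tested members of 34 gene lists (vertical axis, number tested in brackets), with 1 point per gene and a black bar at the list's median. S phase and G2/M phase genes lie mostly to the right (medians 1.77 and 1.51), and keratins (-3.33) and contractile genes (-1.85) mostly to the left. Red points were called higher, blue points lower, and grey points were not called.

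The genes of the contractile cytoskeleton were lower in organoids almost as a block. Of 35 tested members, 30 were lower, 0 were higher and 5 were not called, with a median log2 fold change of -1.85 against -0.00 for all genes tested. Summed over the list, the level was 25321 and 24597 CPM in 2D and 8352 and 7962 CPM in D3 organoids, beside 8471 and 8795 CPM *in vivo*. *Acta2* (chr19:34217737-34232990), the gene of smooth muscle actin, was at 134 and 104 CPM in 2D and 2.5 and 1.94 CPM in D3 organoids (log2 fold change -5.74, SE 0.36, adjusted p = 3.5e-09). *Acta2* and *Tagln* each overlap a gene on the other strand (*Stambpl1* and *Pcsk7*), from which unstranded counts could not tell them apart. The tropomyosin gene *Tpm1* and the caldesmon gene *Cald1*, whose products sit along actin filaments, fell together, with log2 fold changes of -3.66 (SE 0.17) and -3.37 (SE 0.15). *Myl12a*, a regulatory light chain of non-muscle myosin, fell from 1341 and 1119 CPM to 229.9 and 306 CPM (log2 fold change -2.20, SE 0.19, adjusted p = 1.5e-07), although 22.9% of its 3′ words are shared with other genes. *Srf* itself was at 1.61 and 2.37 CPM in 2D and 1.5 and 2.49 CPM in D3 organoids and was not called (adjusted p = 0.99).

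Promoters of the list were searched for the CArG box, the DNA site of SRF, because contractile genes are its textbook targets. In the RefSeq table (build GRCm38.p6), 33 genes of the list had 41 windows, and 10 windows (24.4%) held a CArG box in the 250 bases upstream of the start, on either strand. The same was true of 1.47% of all 32851 windows in the table. With 1 other base allowed in the centre of the box, a setting chosen after seeing the data, the shares were 36.6% and 8.59%. In the list of AP-1 and immediate early genes, treated below, the box without this allowance was found in 5 of 20 windows. An excess over all windows was therefore not particular to the contractile list. That list holds *Srf* itself and known SRF targets, so its excess is not an independent result. A match describes the letters only and was not linked to the expression values by a test. Of the 9 genes of the contractile list with a box, 6 were lower in D3 organoids, and *Actg1*, *Myl6* and *Srf* were not called. The boxes of 5 of the 6 are shown with 20 bases on each side, the box in capitals, so that the matched letters can be read.
Vcl: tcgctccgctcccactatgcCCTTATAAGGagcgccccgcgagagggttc
Fhl2: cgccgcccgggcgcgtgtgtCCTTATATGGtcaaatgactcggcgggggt
Myl9: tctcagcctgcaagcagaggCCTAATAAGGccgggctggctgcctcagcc
Cnn2: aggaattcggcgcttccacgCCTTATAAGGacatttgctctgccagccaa
Lima1: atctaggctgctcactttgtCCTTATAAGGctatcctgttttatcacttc
In GRCm38.p6 these stretches are chr14:20929151-20929200, plus strand for *Vcl*, chr1:43163963-43164012, minus strand for *Fhl2*, chr2:156775283-156775332, plus strand for *Myl9*, chr10:79988524-79988573, plus strand for *Cnn2* and chr15:99820167-99820216, minus strand for *Lima1*. The boxes begin 227, 31, 161, 56 and 47 bases before the annotated start. *Vcl*, the gene of the adhesion plaque protein vinculin, was at 394 and 415 CPM in 2D and 54.3 and 51.6 CPM in D3 organoids (log2 fold change -2.93, SE 0.17, adjusted p = 1.7e-09). *Fhl2*, a LIM domain cofactor, was lower too (log2 fold change -2.45, SE 0.25, adjusted p = 8.5e-07), and so was *Myl9*, a myosin light chain (log2 fold change -2.48, SE 0.35, adjusted p = 3.4e-05). *Cnn2*, the gene of calponin 2, changed by -2.00 (SE 0.16) and *Lima1*, an actin bundling protein, by -0.76 (SE 0.16). *Actg1*, the gene of gamma-actin, holds a box and was at 4.49 and 6.57 CPM in 2D and 0.833 and 2.91 CPM in D3 organoids (adjusted p = 0.12). The share of its 3′ words found in other genes was not computed, so its level and its lack of a call are uncertain. Of the 37 genes of the list only the 33 with a window were searched, and *Tagln* and *Actb* had no window. *Acta2* and *Myl12a*, both lower, held a box only with 1 other base allowed and count here as having none. Searched members with no box were mostly lower as well, so among the genes searched the box did not mark off those that fell.

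The targets of YAP and TAZ divided into a set that was strongly lower and a few that were higher. Of 21 tested members 12 were lower, 3 were higher and 6 were not called (median -1.63). *Ankrd1* and *Ccn2* are much-used reporters of YAP activity. *Ankrd1* was at 276 and 249 CPM in 2D and 3.83 and 0.554 CPM in D3 organoids (log2 fold change -6.97, SE 0.40, adjusted p = 3.0e-09), and *Ccn2* at 300.4 and 224 CPM in 2D and 4.5 and 3.46 CPM in D3 organoids (log2 fold change -6.04, SE 0.34, adjusted p = 1.0e-09). *Ccn1*, a secreted matricellular protein gene of the same family as *Ccn2*, fell from 92.8 and 80.7 CPM to 3.5 and 1.25 CPM (log2 fold change -5.22, SE 0.34, adjusted p = 6.3e-09), and the junctional scaffold gene *Amotl2* from 98.1 and 109 CPM to 10.5 and 4.71 CPM (log2 fold change -3.79, SE 0.31, adjusted p = 8.6e-08). The 3 members that were higher were *Crim1* (0.74), *Fjx1* (1.43) and *Ccdc80* (1.09). *Axl*, a receptor tyrosine kinase gene, was not called, at 37.3 and 41.4 CPM in 2D and 37.6 and 44.1 CPM in D3 organoids, nor was the phosphatase gene *Ptpn14*, at 72.5 and 97.4 CPM in 2D and 81.8 and 95.8 CPM in D3 organoids.

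The word CATTCC, the core of the TEAD site, was found upstream in 6 of 17 windows of this list (35.3%) and in 12.6% of all windows. The AP-1 word TGANTCA was found in 1 of 17 windows (5.88%) and in 6.75% of all windows, and the CArG box in 0 of 17. In the contractile list, CATTCC was found in 10 of 41 windows (24.4%). The stretches around the word in *Ankrd1*, *Ccn1* and *Amotl2*, the 3 members with the word that fell, are shown with the word in capitals. In *Ankrd1* it lies on the opposite strand and so reads GGAATG.
Ankrd1: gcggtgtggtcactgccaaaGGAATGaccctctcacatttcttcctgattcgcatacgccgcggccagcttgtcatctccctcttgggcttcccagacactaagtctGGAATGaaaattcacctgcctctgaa
Ccn1: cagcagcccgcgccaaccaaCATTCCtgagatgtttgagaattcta
Amotl2: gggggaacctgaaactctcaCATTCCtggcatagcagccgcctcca
They lie at chr19:36119942-36120074, minus strand, chr3:145650063-145650108, minus strand and chr9:102717719-102717764, plus strand in GRCm38.p6. *Axl* and *Ptpn14*, which were not called, and *Crim1*, which was higher, also hold the word. Its presence thus did not separate, among the genes that hold it, those that fell from those that did not. Only 15 of the 22 members of the list had a window, and *Ccn2* was not among the genes found to hold the word.

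Feedback genes of TGF-beta and activin were lower as well. Of 19 tested members 11 were lower, 2 were higher and 6 were not called (median -1.35). *Inhba*, which encodes the subunit of activin A, was at 700.5 and 715 CPM in 2D and 11.8 and 9.01 CPM in D3 organoids (log2 fold change -6.09, SE 0.19, adjusted p = 7.5e-12). The activin antagonists *Fst* and *Fstl3*, themselves activin-induced genes, fell with it. *Fst* was at 123 and 97.8 CPM in 2D and 4.33 and 5.68 CPM in D3 organoids, and *Fstl3* at 31.2 and 30.1 CPM in 2D and 1 and 1.8 CPM in D3 organoids. *Pmepa1*, a TGF-beta-induced inhibitor of the pathway, fell from 955 and 1027 CPM to 16.5 and 11.2 CPM (log2 fold change -6.17, SE 0.23, adjusted p = 2.2e-11). Among ligands, *Tgfb2* was lower (log2 fold change -1.63, SE 0.22, adjusted p = 2.2e-05) and *Tgfb3* higher (log2 fold change 0.57, SE 0.20, adjusted p = 0.035), while *Tgfb1* was at 5.02 and 5.66 CPM in 2D and 6 and 5.13 CPM in D3 organoids and was not called. *Ltbp2*, a latent TGF-beta binding protein gene, was the other member that was higher (1.47).

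Genes of the interstitial matrix and its remodelling enzymes were mostly lower, whereas basement membrane genes went both ways. For matrix proteases and their inhibitors 16 of 20 tested members were lower and 3 were higher (median -2.68). This median was -1.90 over members with a mean of at least 10 CPM and -1.97 over genes with 1 CPM in 3 of the 8 libraries. *Plau*, the gene of urokinase, fell from 229 and 191 CPM to 5.83 and 6.1 CPM (log2 fold change -5.13, SE 0.25, adjusted p = 3.0e-10), and the metalloprotease inhibitor gene *Timp1* from 194 and 204 CPM to 9.33 and 7.62 CPM (log2 fold change -4.56, SE 0.31, adjusted p = 7.9e-09). *Timp3* and *Serpine2*, also protease inhibitors, were higher (0.78 and 1.34), as was *Mmp2* (2.02), which is close to the floor in 2D. Of the interstitial matrix list 12 of 20 were lower and 4 were higher (median -1.33, or -2.14 over members with a mean of at least 10 CPM). Besides *Fn1*, the tenascin gene *Tnc*, the thrombospondin gene *Thbs1* and the collagen crosslinking enzyme gene *Lox* were lower. *Tnc* was at 993 and 1132 CPM in 2D and 82.6 and 94 CPM in D3 organoids, *Thbs1* at 139.8 and 152 CPM in 2D and 1.33 and 5.13 CPM in D3 organoids and *Lox* at 189.8 and 224 CPM in 2D and 6.66 and 8.45 CPM in D3 organoids. *Fbln1*, a fibulin gene, was an exception, at 52.8 and 58.9 CPM in D3 organoids and 6.1 and 6.02 CPM in 2D (log2 fold change 3.20, SE 0.26, adjusted p = 7.1e-08), and *Thbs2*, *Sparc* and *Lum* were the other members that were higher. Without 2D replicate 2 the call of *Sparc* was lost (log2 fold change 0.45 against 0.47).

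Of 22 basement membrane genes, 6 were lower, 4 were higher and 12 were not called (median -0.29, or -0.03 with scaling by total counts). The share called, 45.5%, was near the 41.3% of all genes tested. Genes of laminin chains found at hemidesmosomes were lower, with *Lamb3* at 101 and 116 CPM in 2D and 7 and 9.42 CPM in D3 organoids (log2 fold change -3.72, SE 0.24, adjusted p = 5.4e-09) and *Lama3* at -1.33 on the log2 scale. *Lamc1*, of other laminins, was higher (log2 fold change 0.91, SE 0.18, adjusted p = 9.1e-04). The most abundant collagen IV gene of the list, *Col4a1*, was at 254 and 257 CPM in 2D and 219 and 225 CPM in D3 organoids and was not called. *Fras1* and *Frem2*, which encode partners in an embryonic basement membrane complex, were both higher. *Fras1* stood at 79.3 and 118 CPM in D3 organoids and 9.69 and 6.75 CPM in 2D (log2 fold change 3.58, SE 0.26, adjusted p = 1.7e-08), and *Frem2* at 22.7 and 29.1 CPM against 0.359 and 0.182 CPM, with 2 and 1 counts in the 2D libraries. *Col4a6* was the remaining member that was higher (2.84).

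Integrins and adhesion plaque genes were lower in 16 of 23 tested members and higher in 4 (median -0.97). *Itgb1*, the shared beta chain, fell from 874 and 853 CPM to 296 and 291 CPM (log2 fold change -1.56, SE 0.15, adjusted p = 4.4e-07), and *Itga2*, a chain of a collagen receptor, from 18.8 and 25.5 CPM to 0.5 and 3.33 CPM (log2 fold change -3.48, SE 0.70, adjusted p = 8.1e-04; -5.42 without D3 organoids replicate 2). *Itga6*, a chain of laminin receptors, was higher by a small amount, at 332 and 345 CPM in D3 organoids and 222 and 231 CPM in 2D (log2 fold change 0.58, SE 0.14, adjusted p = 0.0031). *Itga1*, *Tns3* and *Tns4* were the other members that were higher, with *Itga1* at 50.5 and 66.1 CPM against 9.15 and 9.12 CPM (log2 fold change 2.67, SE 0.23, adjusted p = 1.3e-07). Plate and gel both presented laminin to the cells.

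The genes of the epithelial cytoskeleton and of cell junctions were mostly lower in D3 organoids. Of 15 keratins tested 10 were lower and 3 were higher (median -3.33), and their summed level fell from 9684 and 9193 CPM in 2D to 985 and 813 CPM in D3 organoids, beside 2557 and 2836 CPM *in vivo*. *Krt7* (chr15:101308924-101328194), a keratin of simple and glandular epithelia, fell from 1722 and 1713 CPM to 30.7 and 24.9 CPM (log2 fold change -5.95, SE 0.25, adjusted p = 5.9e-11). *Krt14*, a keratin of basal epithelium, was at 906 and 1029 CPM in 2D and 51.3 and 40.2 CPM in D3 organoids. *Krt17*, a keratin of activated epithelium, was at 1009 and 1105 CPM in 2D and 44.1 and 38.3 CPM in D3 organoids. *Krt5*, the partner of *Krt14*, fell by less (log2 fold change -1.51, SE 0.17, adjusted p = 2.7e-06). *Krt15* was the keratin that clearly went the other way, at 57.6 and 53.2 CPM in D3 organoids and 1.97 and 3.47 CPM in 2D (log2 fold change 4.34, SE 0.28, adjusted p = 4.5e-09), while *Krt4* and *Krt13*, also called higher, stayed at or below 4.16 CPM in every library of both groups.

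Of 29 genes of tight and adherens junctions 21 were lower and 3 were higher (median -1.41). *Cldn4* and *Cldn6*, claudins that seal tight junctions, fell steeply. *Cldn4* was at 1087 and 1184 CPM in 2D and 54 and 53.6 CPM in D3 organoids (log2 fold change -4.40, SE 0.17, adjusted p = 2.3e-11), and *Cldn6* at 413 and 405 CPM in 2D and 9.66 and 12.2 CPM in D3 organoids (log2 fold change -5.22, SE 0.32, adjusted p = 2.8e-09). *Epcam*, the marker by which the cells had been sorted, was at 803 and 712 CPM in 2D and 586 and 565 CPM in D3 organoids (log2 fold change -0.40, SE 0.14, adjusted p = 0.03), a small difference whose call was lost under 7 of the alternatives tried. These included leaving out 2D replicate 1 (-0.31), D3 organoids replicate 1 (-0.42) or D3 organoids replicate 2 (-0.37). The 3 members that were higher were the cadherin genes *Cdh2* (2.36) and *Cdh3* (1.03) and *Nectin1* (1.21). Desmosomal and envelope genes were lower in 14 of 18 tested members and higher in 1, *Dsc3* (1.39), with a median of -1.51. *Sfn*, the gene of the epithelial 14-3-3 protein, fell from 1006 and 790.3 CPM to 104 and 74.4 CPM (log2 fold change -3.33, SE 0.20, adjusted p = 2.0e-09), and the plakophilin gene *Pkp2* from 58.5 and 57.8 CPM to 3.66 and 1.94 CPM (log2 fold change -4.39, SE 0.42, adjusted p = 3.9e-07).

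Regulators of the epithelial state were mixed, with 4 of 17 tested members higher, 5 lower and 8 not called (median -0.33). This median was -0.07 with scaling by total counts, -0.10 over members with a mean of at least 10 CPM, -0.11 without 2D replicate 1 and -0.10 without D3 organoids replicate 2. *Trp63*, which encodes p63, a factor of epithelial progenitors, rose from 14 and 14.1 CPM in 2D to 74.8 and 72.9 CPM in D3 organoids (log2 fold change 2.39, SE 0.19, adjusted p = 5.5e-08), and *Grhl1* from 10.9 and 4.74 CPM to 41.5 and 44.2 CPM (log2 fold change 2.44, SE 0.34, adjusted p = 2.4e-05). *Klf4*, a factor of epithelial differentiation, fell from 205 and 212 CPM to 24.3 and 13.9 CPM (log2 fold change -3.46, SE 0.22, adjusted p = 5.6e-09), and so did the intermediate filament gene *Vim*, from 199 and 149 CPM to 17.8 and 12.8 CPM (log2 fold change -3.52, SE 0.24, adjusted p = 9.7e-09). *Esrp1*, an epithelial splicing factor gene, was at 154 and 155 CPM in 2D and 167 and 151 CPM in D3 organoids and was not called. *Snai2* (1.60) and *Cdh2* (2.36) were the other members that were higher.

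**Figure D3:**
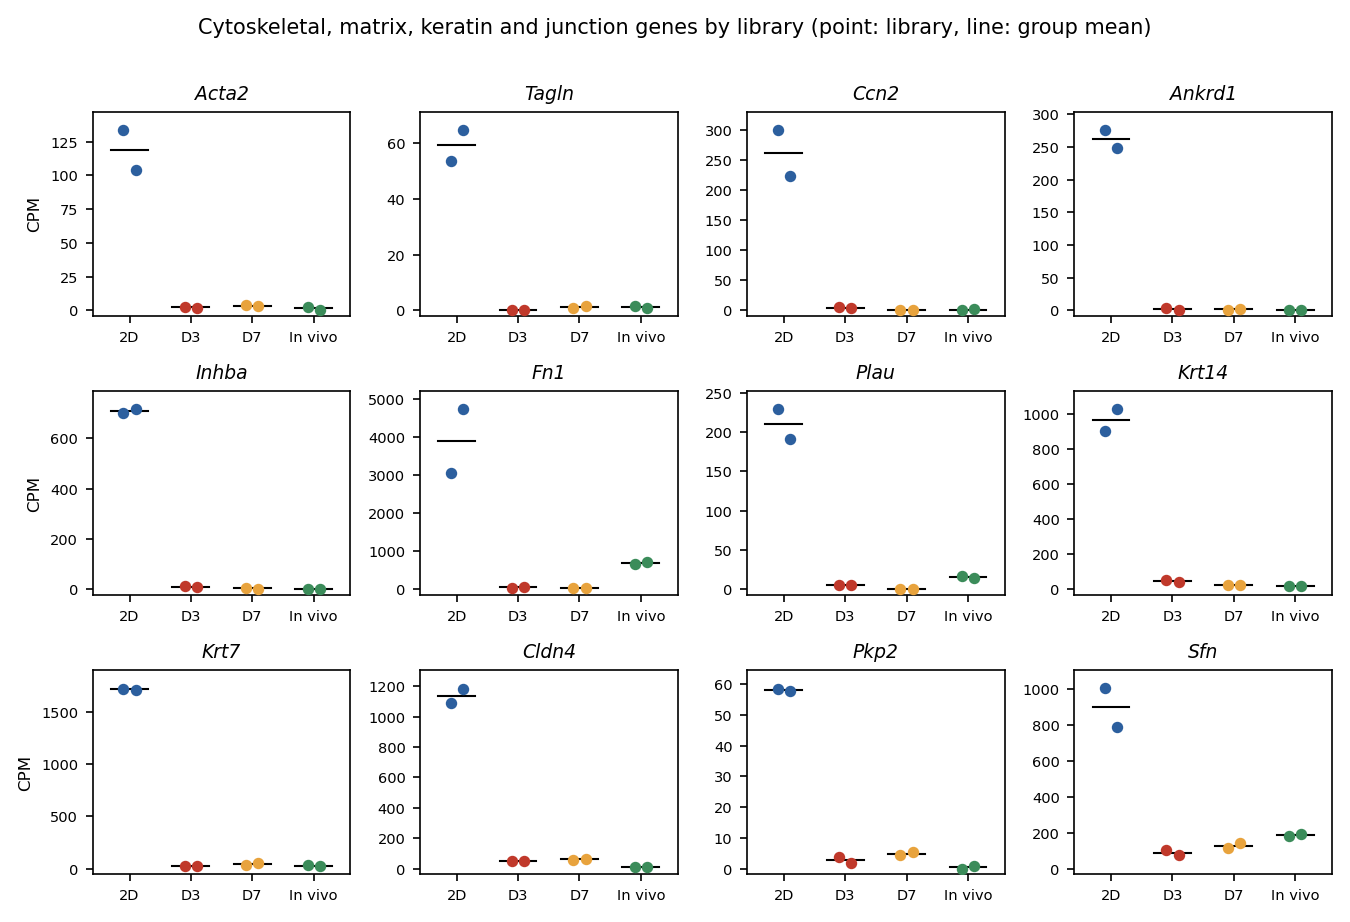
Level in CPM (vertical axis, from 0) of 12 genes of the cytoskeleton, matrix, keratins and junctions in each library of 2D, D3 organoids, D7 organoids and *in vivo* TECs (horizontal axis), with a point per library and a line at the group mean. In all 12 panels both 2D libraries lie above every other library. *Fn1* *in vivo* (677 and 733 CPM) is the next highest of its panel.

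Most thymic transcription factors were higher in organoids, but *Foxn1* was not called. Of 12 tested members 7 were higher, 2 were lower and 3 were not called (median 0.79). *Pax9* and *Eya1*, which act in the formation of the thymic primordium from the pharyngeal pouch, were both higher. *Pax9* was at 165 and 163 CPM in 2D and 362 and 332 CPM in D3 organoids (log2 fold change 1.09, SE 0.15, adjusted p = 2.0e-05), and *Eya1* at 45.6 and 40.9 CPM in 2D and 125 and 139.8 CPM in D3 organoids (log2 fold change 1.62, SE 0.18, adjusted p = 2.8e-06). *Pax1*, of the same family as *Pax9*, was higher by 0.73 on the log2 scale. *Foxn1* was at 8.66 and 9.56 CPM in D3 organoids and 8.43 and 4.74 CPM in 2D and was not called (log2 fold change 0.47, SE 0.30, adjusted p = 0.23), with a log2 fold change between 0.12 and 0.94 when a library was left out. In this fit the D7 organoids, at 60.9 and 85.3 CPM, were higher than D3 organoids in *Foxn1* (log2 fold change 2.99, SE 0.25, adjusted p = 8.3e-07), where 10.6% of genes were called higher and 9.88% lower at D7. *Relb*, an NF-kappaB factor of medullary TECs, and *Foxa2* were the 2 members that were lower in D3 organoids (-1.38 and -3.10).

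Genes of cortical TECs went both ways. Of 13 tested members 5 were higher, 5 were lower and 3 were not called, with a median of -0.07 that turned positive when libraries were scaled by total counts (0.19), over members with a mean of at least 10 CPM (1.46) or without 2D replicate 1 (0.01), and was -0.14 without 2D replicate 2. The gains included *Cxcl12* and *Kitl*, whose products attract and support progenitors. *Cxcl12* (chr6:117144945-117158328), the chemokine that retains progenitors in the cortex, was at 251 and 262 CPM in D3 organoids and 6.1 and 5.47 CPM in 2D (log2 fold change 5.46, SE 0.19, adjusted p = 1.8e-11). *Kitl*, which encodes stem cell factor, was at 195 and 187 CPM against 13.8 and 16.6 CPM (log2 fold change 3.65, SE 0.18, adjusted p = 2.9e-10), and *Ackr4*, a scavenging receptor for chemokines, at 152 and 172 CPM against 4.67 and 0.912 CPM (log2 fold change 5.85, SE 0.34, adjusted p = 1.6e-09). The serine protease gene *Prss16* and the ligand gene *Bmp4* were the other members that were higher, with log2 fold changes of 1.39 (SE 0.16) and 1.57 (SE 0.30). Among the losses were the lysosomal protease gene *Ctsl*, at 123 and 129 CPM against 706 and 603 CPM (log2 fold change -2.38, SE 0.16, adjusted p = 8.2e-09), and the chemokine gene *Ccl25*, at 5 and 2.36 CPM against 9.69 and 7.3 CPM, whose call was lost without 2D replicate 1 (log2 fold change -1.02) or without D3 organoids replicate 2 (-0.76, against -1.24). *Enpep*, *Syngr1* and *Gper1* were the remaining members that were lower.

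*In vivo* TECs and D7 organoids set the scale of these values. *Prss16* was at 2886 and 2933 CPM *in vivo* and 381 and 389 CPM in D7 organoids, against 41.1 and 43.5 CPM in D3 organoids, while *Kitl* was at 181 and 183 CPM *in vivo*, close to its D3 organoid level. *Cxcl12* was at 583 and 592 CPM *in vivo* and 268 and 241 CPM in D7 organoids. From D3 to D7 *Prss16* rose (log2 fold change 3.18, SE 0.15, adjusted p = 4.8e-09), and *Cxcl12* was not called (log2 fold change -0.01, SE 0.14, adjusted p = 0.98). *Psmb11*, the thymoproteasome gene of cortical TECs, was at 0.5 and 0.97 CPM in D3 organoids and 0.538 and 0.547 CPM in 2D, below the filter, and at 107 and 113 CPM in D7 organoids.

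MHC class II genes were higher in 5 of 8 tested members and lower in 0 (median 1.48). *H2-Eb1*, a beta chain, was at 25 and 33.1 CPM in D3 organoids and 2.33 and 4.01 CPM in 2D (log2 fold change 3.19, SE 0.29, adjusted p = 2.2e-07). The invariant chain gene *Cd74* was at 16 and 19.3 CPM against 4.67 and 7.85 CPM (log2 fold change 1.5, SE 0.26, adjusted p = 2.3e-04), and the lysosomal thiol reductase gene *Ifi30* at 147 and 139 CPM against 35.5 and 29.2 CPM (log2 fold change 2.14, SE 0.19, adjusted p = 2.0e-07). *H2-Aa* and *H2-DMa* were the other members called higher. *H2-Ab1* was at 32.3 and 27.2 CPM in 2D and 26.5 and 29.7 CPM in D3 organoids and was not called. *H2-Aa* and *H2-Eb1* overlap on opposite strands in the annotation used here, and the strand setting of the counting is not given in the sources used here. The list summed to 240.0 and 240.5 CPM in D3 organoids and 86.8 and 76.3 CPM in 2D, against 2036 and 1995 CPM *in vivo*.

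**Figure D4:**
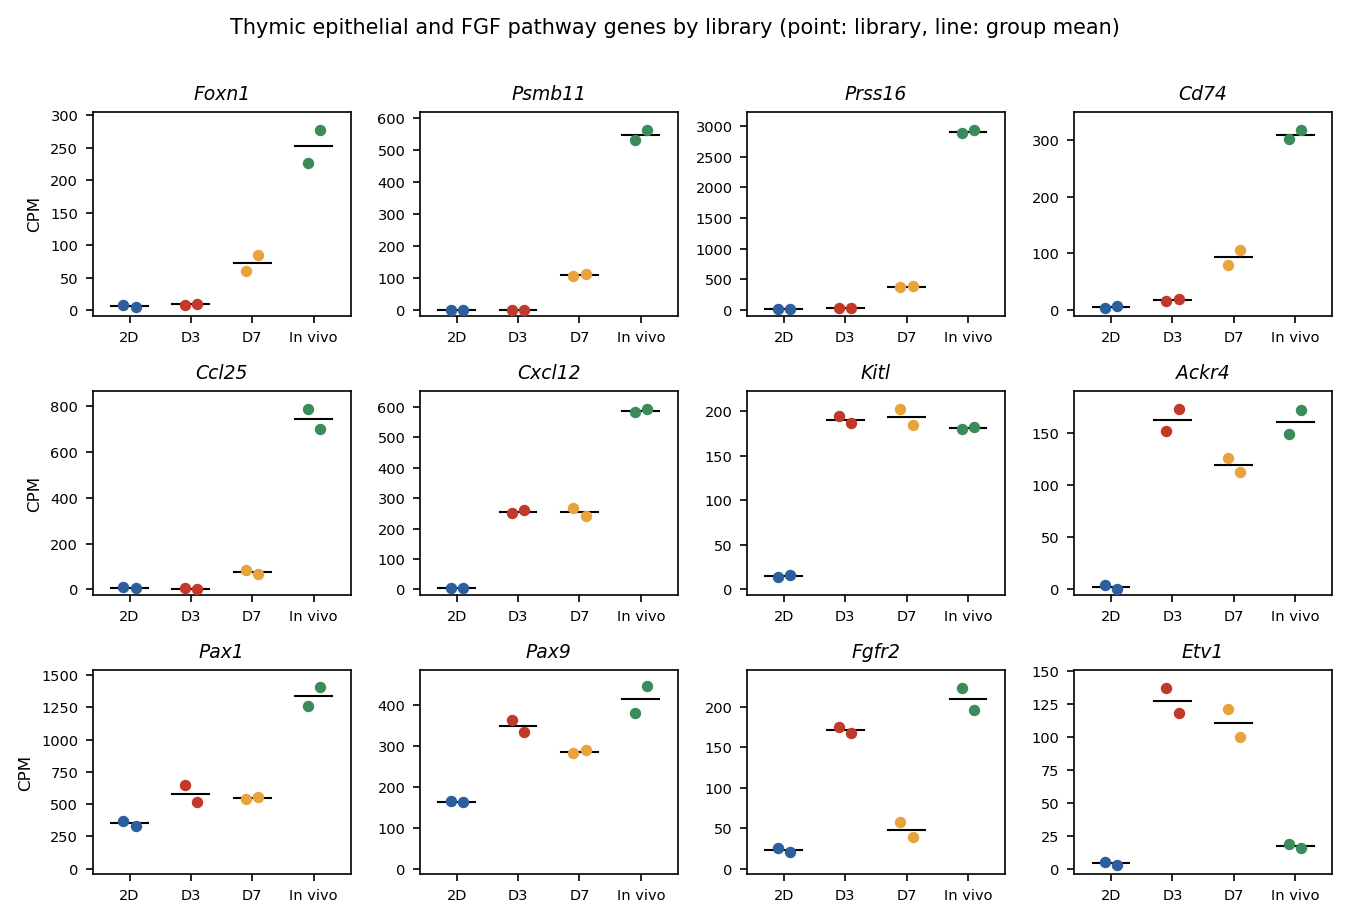
Level in CPM (vertical axis, from 0) of 12 thymic epithelial and FGF pathway genes in each library of 2D, D3 organoids, D7 organoids and *in vivo* TECs (horizontal axis), with a point per library and a line at the group mean. *Kitl* and *Ackr4* in D3 organoids lie near their *in vivo* levels, *Prss16* and *Foxn1* lie far below them, and *Etv1* lies above.

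Genes of medullary TECs were lower in 10 of 13 tested members and higher in 1 (median -3.32). The list holds *Krt5*, *Krt14*, *Cldn3* and *Cldn4*, which are also in the keratin and junction lists. *Ccl21a*, the chemokine of the medulla, fell from 132 and 139.6 CPM in 2D to 1.5 and 0.97 CPM in D3 organoids (log2 fold change -6.78, SE 0.29, adjusted p = 6.4e-11), and 60.5% of its 3′ words are shared with its paralogs. The costimulation genes *Cd40* and *Cd80* and the receptor gene *Tnfrsf11a* were all lower, and all at or below 10.05 CPM in the 4 libraries. *Ccl20*, at 1.5 and 1.52 CPM in D3 organoids and with no count in 2D, was the member that was higher. *Pdpn*, a gene of junctional TECs, was at 308 and 303 CPM in D3 organoids and 325 and 267 CPM in 2D and was not called. In bulk RNA, fewer cells of a type and less RNA per cell cannot be told apart.

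Cytokines and homing signals for thymocytes were higher in 6 of 15 tested members and lower in 4 (median -0.02, or 0.23 with scaling by total counts and 1.64 over members with a mean of at least 10 CPM). The sign of this median depended on the library left out, at -0.42 without D3 organoids replicate 2, 0.46 without D3 organoids replicate 1, 0.06 without 2D replicate 2 and 0.74 without 2D replicate 1. Notch ligands moved in opposite directions. *Jag2* stood at 66.8 and 84.5 CPM in D3 organoids and 1.61 and 5.47 CPM in 2D (log2 fold change 4.41, SE 0.35, adjusted p = 4.9e-08), whereas *Jag1* stood at 82.3 and 70.8 CPM against 440.0 and 422 CPM (log2 fold change -2.49, SE 0.21, adjusted p = 8.4e-08). *Dll4*, the ligand that commits progenitors to the T lineage, was at 0.167 and 0.693 CPM in D3 organoids and 0.538 and 0 CPM in 2D, below the filter. *Il7*, the main survival cytokine of immature thymocytes, was higher by a small amount (log2 fold change 0.65, SE 0.17, adjusted p = 0.0059), a call that was lost without 2D replicate 2 (0.56). *Ackr3*, the scavenging receptor for CXCL12, moved the opposite way from its ligand, with 0.333 and 0.832 CPM in D3 organoids and 21.9 and 24.3 CPM in 2D (log2 fold change -5.22, SE 0.60, adjusted p = 3.2e-06).

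Proliferation genes were higher in organoids with few exceptions. Of 43 S phase genes 41 were higher and 1 was lower (median 1.77), and of 54 G2/M genes 47 were higher and 1 was lower (median 1.51). The proliferation marker gene *Mki67* was at 354 and 334 CPM in D3 organoids and 65.3 and 67.3 CPM in 2D (log2 fold change 2.37, SE 0.16, adjusted p = 1.1e-08), and *Top2a*, which untangles DNA before mitosis, at 1017 and 793 CPM against 180.3 and 174 CPM (log2 fold change 2.35, SE 0.16, adjusted p = 7.7e-09). *Cdc6*, which licenses replication origins, and *Cdc25c*, a phosphatase of mitotic entry, were higher by 2.51 (SE 0.32) and 3.06 (SE 0.38). The exceptions were *Mrpl36* and *Jpt1* (-0.77 and -0.91). The list of cell cycle inhibitors also holds the p53 target genes *Ccng1*, *Mdm2* and *Sesn1*. It was lower in 8 of 14 tested members and higher in 4 (median -1.06). *Cdkn2b*, the gene of p15 and a known target of TGF-beta signalling, fell from 174 and 146 CPM in 2D to 2.83 and 5.68 CPM in D3 organoids (log2 fold change -5.20, SE 0.29, adjusted p = 1.1e-09). *Cdkn2a*, which encodes p16 and ARF and accumulates in cultured cells, fell from 52.9 and 55.8 CPM to 4.16 and 4.57 CPM (log2 fold change -3.63, SE 0.31, adjusted p = 1.3e-07), and the p53 target *Cdkn1a* from 512 and 579.7 CPM to 105 and 57.8 CPM (log2 fold change -2.75, SE 0.22, adjusted p = 7.5e-08). The 4 members of the list that were higher were *Sesn1* (2.88), *Cdkn2d* (2.18), *Cdkn1b* (0.88) and *Cdkn2c*. *Cdkn2c*, the gene of p18, had no count in 2D and 8.83 and 9.01 CPM in D3 organoids. Within the INK4 family of CDK inhibitors, the genes of p15 and p16 were thus lower and those of p18 and p19 (*Cdkn2c* and *Cdkn2d*) higher.

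The FGF receptor gene *Fgfr2* and several feedback genes were higher, while the phosphatase genes *Dusp4* and *Dusp5* of the same list were lower. Of 16 tested members 10 were higher, 3 were lower and 3 were not called (median 1.57). *Fgfr2*, whose epithelial isoform binds the FGF7 of the medium, stood at 175 and 167 CPM in D3 organoids and 25.8 and 20.3 CPM in 2D (log2 fold change 2.89, SE 0.21, adjusted p = 1.9e-08). The counts do not tell its isoforms apart. Among ERK-induced genes, the transcription factor gene *Etv1* was at 137 and 118 CPM against 5.38 and 3.1 CPM (log2 fold change 4.90, SE 0.26, adjusted p = 5.3e-10), with 24.7% of its 3′ words shared with other genes. The feedback inhibitor gene *Il17rd* (Sef) was at 203 and 214 CPM against 23.1 and 22.6 CPM (log2 fold change 3.19, SE 0.21, adjusted p = 7.1e-09), and the ERK phosphatase gene *Dusp6* at 476 and 375 CPM against 135 and 98.9 CPM (log2 fold change 1.86, SE 0.30, adjusted p = 1.2e-04). *Spry1* and *Spred1*, inhibitors of the same cascade, were higher by 1.53 and 1.19. The 3 members that were lower were the phosphatase genes *Dusp5* (-4.16) and *Dusp4* (-1.90) and the FGF-binding protein gene *Fgfbp1* (-2.27).

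EGF family genes moved in the opposite direction, with 9 of 12 tested members lower and 0 higher (median -1.52, or -0.9998 over members with a mean of at least 10 CPM). *Hbegf*, a membrane-bound EGF receptor ligand, fell from 233 and 200.4 CPM in 2D to 9.66 and 9.29 CPM in D3 organoids (log2 fold change -4.52, SE 0.29, adjusted p = 5.6e-09), and *Nrg1*, a ligand of ERBB3, from 11.3 and 18.8 CPM to 1 and 0.139 CPM (log2 fold change -4.75, SE 0.84, adjusted p = 2.7e-04). The receptor gene *Egfr* fell by less (log2 fold change -1.08, SE 0.17, adjusted p = 8.9e-05). AP-1 and immediate early genes were lower in 12 of 20 tested members and higher in 0 (median -1.74). *Junb*, an AP-1 subunit gene, was at 137 and 124 CPM in 2D and 12.8 and 10.9 CPM in D3 organoids. *Ier3* was at 258 and 249 CPM in 2D and 18 and 17 CPM in D3 organoids, and the zinc finger factor gene *Klf6* at 368 and 319 CPM in 2D and 36 and 25.9 CPM in D3 organoids, whereas *Egr1* fell by less (log2 fold change -0.68, SE 0.23, adjusted p = 0.024). These genes respond within minutes to handling, and the formats were harvested differently. The list summed to 1434 and 1305 CPM in 2D, 285 and 216 CPM in D3 organoids and 3350.3 and 3125 CPM *in vivo*, where tissue had been dissociated and sorted. The part of the harvest in these values was not tested.

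BMP and Id genes were higher in 7 of 13 tested members and lower in 1, *Bmper* (median 0.69). The median was 1.28 without 2D replicate 2, 1.52 over members with a mean of at least 10 CPM and 1.06 over genes with 1 CPM in 3 of the 8 libraries. *Id2* and *Id3*, inhibitors of helix-loop-helix factors and direct BMP targets, were higher. *Id2* was at 68.5 and 85.9 CPM in 2D and 349 and 367 CPM in D3 organoids (log2 fold change 2.21, SE 0.16, adjusted p = 1.3e-08), and *Id3* at 14.7 and 15.7 CPM in 2D and 156 and 157 CPM in D3 organoids (log2 fold change 3.36, SE 0.27, adjusted p = 5.6e-08). *Id1*, of the same family, was at 50.1 and 48.5 CPM in 2D and 58.1 and 72.8 CPM in D3 organoids and was not called. Among Notch and Wnt genes 6 of 21 tested members were higher, 6 lower and 9 not called (median -0.22, or 0.03 with scaling by total counts, 0.39 over members with a mean of at least 10 CPM and -0.12 with limma-voom). This median lay between -0.61 without 2D replicate 2 and 0.21 without 2D replicate 1, and was -0.35 without D3 organoids replicate 2. The receptor gene *Notch1* and the target gene *Hey1* were higher. *Notch1* was at 46.5 and 59.9 CPM in 2D and 266 and 310.5 CPM in D3 organoids (log2 fold change 2.44, SE 0.19, adjusted p = 5.1e-08), and *Hey1* at 18.5 and 15.1 CPM in 2D and 102 and 107 CPM in D3 organoids (log2 fold change 2.63, SE 0.18, adjusted p = 9.3e-09). The target *Hes1* was at 278 and 229.9 CPM in 2D and 177 and 185 CPM in D3 organoids and was not called, and *Nrarp* was lower (-2.44). Of Wnt ligands, *Wnt4*, which acts in thymus development, was higher (log2 fold change 2.23, SE 0.18, adjusted p = 5.6e-08) and *Wnt7b* lower, from 143 and 167 CPM in 2D to 4 and 2.63 CPM in D3 organoids (log2 fold change -5.56, SE 0.26, adjusted p = 1.4e-10). *Sp5*, a direct target of Wnt and beta-catenin, had no count in 2D and 10.8 and 6.65 CPM in D3 organoids, and *Axin2*, another, was at 7.83 and 4.02 CPM against 0.538 and 0 CPM.

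Genes of glycolysis and of the response to low oxygen were lower in 20 of 28 tested members and higher in 1 (median -1.83). *Ndrg1*, a hypoxia-induced gene, fell from 153 and 241 CPM in 2D to 6.66 and 5.13 CPM in D3 organoids (log2 fold change -5.07, SE 0.33, adjusted p = 6.3e-09), and the lactate dehydrogenase gene *Ldha* from 727 and 874 CPM to 262 and 238 CPM (log2 fold change -1.68, SE 0.16, adjusted p = 3.7e-07). *Car9*, a carbonic anhydrase gene and classical target of HIF, was at 20.8 and 23.7 CPM in 2D and 0.5 and 0 CPM in D3 organoids. *Car12*, a related membrane carbonic anhydrase gene, was the member that was higher, at 65.5 and 80.0 CPM in D3 organoids and 0.359 and 0.547 CPM in 2D, the opposite direction from *Car9*. *Aldoa* and *Pkm* share 81.4% and 28.5% of their 3′ words with other genes, so their values are uncertain. Genes of oxidative phosphorylation were called in 9 of 36 tested members, 6 higher and 3 lower (median 0.08), beside 41.3% of all genes called. This median was 0.33 with scaling by total counts, 0.15 over members with a mean of at least 10 CPM, 0.27 without 2D replicate 1, 0.02 without 2D replicate 2, 0.18 without D3 organoids replicate 1 and 0.05 without D3 organoids replicate 2. The subunit gene *Cox8a* was the most changed of those higher, at 215 and 263 CPM against 70.3 and 63.7 CPM (log2 fold change 1.83, SE 0.16, adjusted p = 2.0e-07).

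Cholesterol synthesis genes were called in 37.5% of 24 tested members, below the 41.3% of all genes tested. They were higher in 9 and lower in 0 (median 0.41, or 0.66 with scaling by total counts). The synthase gene *Hmgcs1* and the squalene epoxidase gene *Sqle* were among the 9. *Hmgcs1* was at 317 and 298 CPM in 2D and 667 and 545 CPM in D3 organoids (log2 fold change 0.98, SE 0.16, adjusted p = 9.7e-05), and *Sqle* at 82 and 73.5 CPM in 2D and 183 and 183 CPM in D3 organoids (log2 fold change 1.24, SE 0.16, adjusted p = 1.7e-05). Amino acid and ER stress genes were lower in 9 of 28 tested members and higher in 4 (median -0.23, or 0.03 with scaling by total counts and -0.13 without 2D replicate 1). The share of them called, 46.4%, was near that of all genes tested. Targets of ATF4 such as the asparagine synthetase gene *Asns* and the pseudokinase gene *Trib3* were lower. *Asns* was at 81.1 and 93.1 CPM in 2D and 12.3 and 14.7 CPM in D3 organoids, and *Trib3* at 39.1 and 39.8 CPM in 2D and 1.83 and 3.46 CPM in D3 organoids. The ER chaperone gene *Hspa5* was not called, at 1014 and 782 CPM in 2D and 963 and 787 CPM in D3 organoids. Heat shock genes were lower in 8 of 15 tested members and higher in 0 (median -0.55, or -0.30 with scaling by total counts). The small heat shock protein genes *Cryab* and *Hspb1* were lower. *Cryab* was at 119 and 95.3 CPM in 2D and 11.7 and 14.7 CPM in D3 organoids, and *Hspb1*, which shares 34.7% of its 3′ words with other genes, at 105 and 94.9 CPM in 2D and 32.3 and 28.4 CPM in D3 organoids.

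S100 proteins, annexins and galectins formed another block that was lower, with 16 of 18 tested members lower and 0 higher (median -2.87). Their summed level was 11368 and 10056 CPM in 2D, 1312 and 1474 CPM in D3 organoids and 1389.5 and 1409.5 CPM *in vivo*. The calcium-binding protein gene *S100a6* fell from 2100.4 and 1904 CPM to 50.3 and 46.3 CPM (log2 fold change -5.37, SE 0.29, adjusted p = 8.2e-10), the annexin gene *Anxa8* from 227 and 216 CPM to 7 and 5.13 CPM (log2 fold change -5.20, SE 0.35, adjusted p = 7.3e-09) and the galectin gene *Lgals3* from 185 and 195 CPM to 11.2 and 6.79 CPM (log2 fold change -4.41, SE 0.38, adjusted p = 1.2e-07). Inflammatory chemokines and cytokines were lower in 8 of 15 tested members and higher in 3 (median -2.43, or -2.12 with members that have no count in a group set at their bound and -0.96 over members with a mean of at least 10 CPM). *Cxcl5*, a neutrophil attractant, was at 180.1 and 179.7 CPM in 2D and 21.3 and 25.6 CPM in D3 organoids, and *Cxcl16*, a membrane-bound chemokine, at 70.3 and 73 CPM in 2D and 4.16 and 10.4 CPM in D3 organoids. The alarmin gene *Il33* was higher, at 199.6 and 176 CPM against 55.8 and 52.2 CPM (log2 fold change 1.80, SE 0.18, adjusted p = 8.1e-07), with *Cx3cl1* and *Ccl20* the others.

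MHC class I and interferon-response genes were lower in 10 of 26 tested members, higher in 2 and not called in 14 (median -0.71, or -0.45 with scaling by total counts and -0.07 over members with a mean of at least 10 CPM). The share called, 46.2%, was near the 41.3% of all genes tested. *B2m*, the light chain of class I, was at 315 and 311 CPM in 2D and 89.5 and 103 CPM in D3 organoids (log2 fold change -1.70, SE 0.16, adjusted p = 3.3e-07), and the heavy chain gene *H2-K1* at 235 and 176 CPM in 2D and 74.6 and 88.4 CPM in D3 organoids (log2 fold change -1.34, SE 0.18, adjusted p = 2.0e-05). Both fell, whereas no class II gene did. *Psmb10* and *Ifit2* were the members that were higher (1.10 and 1.93). Secretory and mucosal defence genes divided, with 8 of 17 tested members lower and 5 higher (median -1.80). *Bpifa1*, an airway secretory protein gene, stood at 389 and 515 CPM in D3 organoids and 103 and 98.5 CPM in 2D (log2 fold change 2.16, SE 0.16, adjusted p = 3.2e-08), whereas the secretory chaperone gene *Clu* fell from 1429 and 1543 CPM to 249 and 226 CPM (log2 fold change -2.65, SE 0.20, adjusted p = 3.6e-08) and *Lcn2*, a siderophore-binding protein gene, from 184 and 174 CPM to 27 and 37.8 CPM (log2 fold change -2.46, SE 0.42, adjusted p = 2.1e-04). *Scgb3a1*, *Cyp2f2* and *Aqp3* were the members higher besides *Bpifa1* and *Wfdc2*. Of the IGF axis and imprinted genes 13 of 20 tested members were lower and 5 were higher (median -0.67, or -0.42 with scaling by total counts). *Igf1r*, the receptor, was lower (log2 fold change -1.41, SE 0.21, adjusted p = 4.3e-05), and so was *Igfbp7*, a binding protein (log2 fold change -3.38, SE 0.29, adjusted p = 1.3e-07). Also lower was the imprinted RNA *H19*, at 58.1 and 79.6 CPM in 2D and 7.5 and 10.7 CPM in D3 organoids (log2 fold change -2.91, SE 0.46, adjusted p = 1.1e-04). *Igfbp5*, *Dlk1*, *Peg3* and *Mest* were higher, together with *Igfbp4*.

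**Figure D5:**
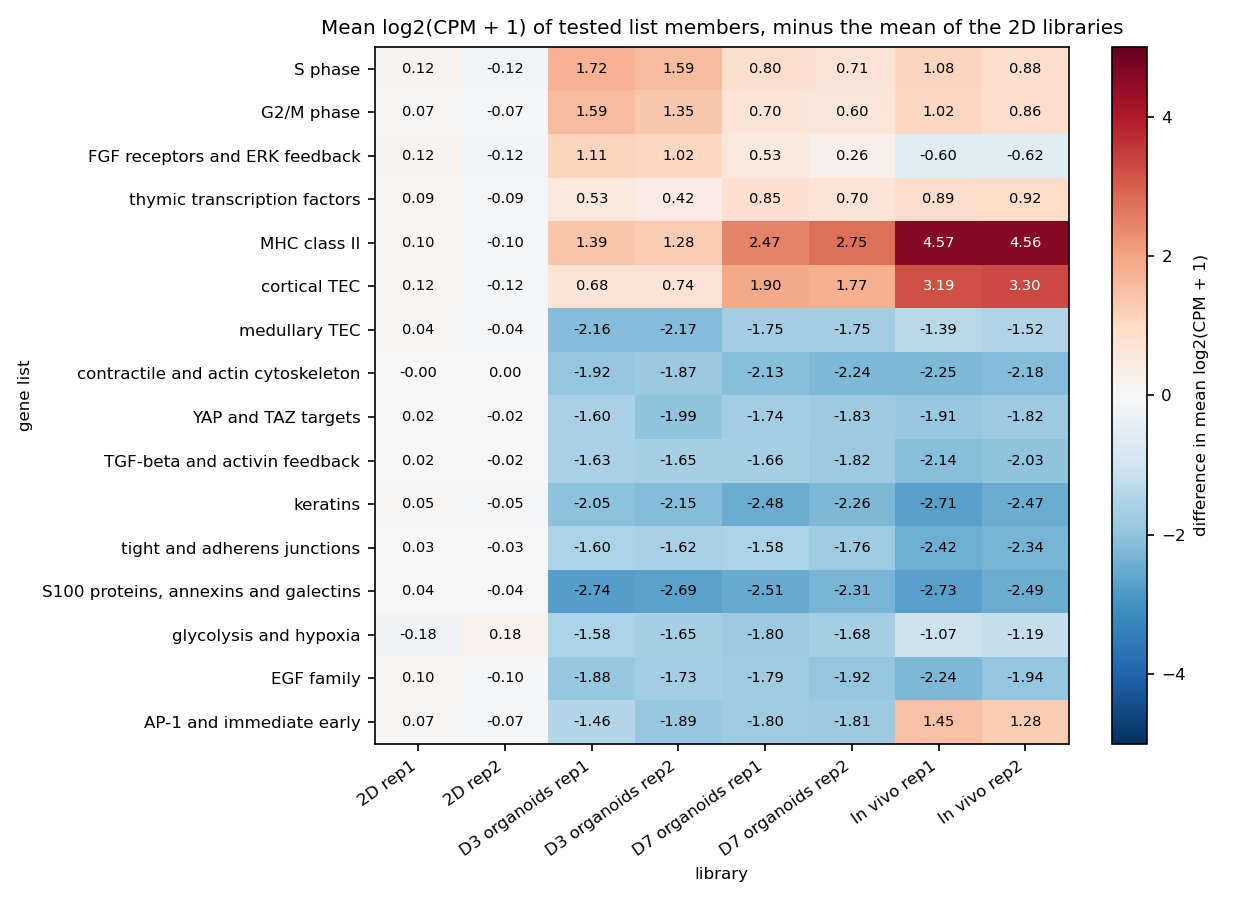
Mean log2(CPM + 1) of the tested members of 16 gene lists (vertical axis) in each of the 8 libraries (horizontal axis), as the difference from the mean of the 2D libraries (colour and printed value). Contractile genes were -1.92 and -1.87 in D3 organoids and -2.25 and -2.18 *in vivo*, and MHC class II genes 1.39 and 1.28 in D3 organoids and 4.57 and 4.56 *in vivo*.

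Set beside the other libraries of the study, 9 of the 10 lists plotted that lay lower in D3 organoids than in 2D also lay lower *in vivo* than in 2D. The lists plotted are a selection. Among those not plotted, MHC class I and interferon-response genes were lower in D3 organoids but higher *in vivo*. Their mean log2(CPM + 1) was 3.87 and 3.97 in 2D, 3.34 and 3.34 in D3 organoids and 5.95 and 5.89 *in vivo*. As differences from the 2D mean of log2(CPM + 1), keratins were at -2.05 and -2.15 in D3 organoids, -2.48 and -2.26 in D7 organoids and -2.71 and -2.47 *in vivo*. YAP and TAZ targets were at -1.60 and -1.99 in D3 organoids and -1.91 and -1.82 *in vivo*. S phase genes were at 1.72 and 1.59 in D3 organoids, 0.80 and 0.71 in D7 organoids and 1.08 and 0.88 *in vivo*, so these genes stood highest in D3 organoids. FGF pathway genes were at 1.11 and 1.02 in D3 organoids, 0.53 and 0.26 in D7 organoids and -0.60 and -0.62 *in vivo*. AP-1 and immediate early genes, the exception among the 10, were lower on both days of organoids (-1.46 and -1.89 at D3 and -1.80 and -1.81 at D7) and higher *in vivo* (1.45 and 1.28). These differences share the 2D libraries and were not tested against each other.

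Markers of other cell types of the thymus were scarce in both formats. Thymocyte markers summed to 4.13 and 12.8 CPM in 2D and 4 and 5.27 CPM in D3 organoids, against 984 and 430.0 CPM *in vivo*. Between 4 and 10 of the 15 markers had no count in each of the 4 libraries, *Rag2* and *Ptcra* among them throughout. Of these markers 2 were tested, and *Trac*, at 1.61 and 4.2 CPM in 2D with no count in D3 organoids, was lower. Mesenchymal markers summed to 47.5 and 42.9 CPM in 2D and 28 and 23.8 CPM in D3 organoids, with 2 of 8 tested members higher (*Lum* and *Meox1*) and 3 lower (*Col1a1*, *Col3a1* and *Thy1*). The level of *Col1a1* was 12.7 and 9.49 CPM in 2D and 1 and 0.832 CPM in D3 organoids. Endothelial, erythroid and myeloid markers summed to between 0 and 6.02 CPM in each of the 4 libraries. Parathyroid and endocrine markers summed to 16.2 and 10.1 CPM in D3 organoids and 5.02 and 4.2 CPM in 2D, and *Pth* and *Chga* were higher in D3 organoids. *Pdgfra* and *Pdgfrb*, defining receptors of mesenchyme, stayed at or below 1.44 CPM, and *Col1a1* and *Col3a1* are members of the interstitial matrix list too. The summed markers were lower along with that list, and their part in its result was not tested.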

How the data were processed

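Bulk RNA of 8 libraries was sequenced by the authors with the QuantSeq 3′ method on a NextSeq 500 and aligned with STAR to GRCm39. The deposited files hold raw counts of reads per Ensembl gene, with no normalization. The submitters' processing notes name R 4.1.2, edgeR and limma. The annotation release, the strand setting and the treatment of reads with several positions are not given in the sources used here. Of 56923 genes, 56236 were matched to GENCODE vM39.

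Groups were taken from the labels. D3 organoids were compared with 2D in R 4.3.3 by edgeR 4.0.16 (quasi-likelihood test, TMM factors, 1 model of 8 libraries and 4 groups, 4 residual degrees of freedom, Benjamini-Hochberg adjustment over all genes tested, threshold 0.05). The study's limma-voom (limma 3.58.1) and DESeq2 1.42.0 were alternatives. A gene was tested where 2 or more of these 4 libraries reached 1 CPM. Total counts of the 8 libraries were 5084715 to 7612532. Python 3.11.15 with pandas 2.3.3 and matplotlib 3.10.9 was used for lists and figures. On simulated counts of 13862 genes with 200 changed in this comparison, 78% of 4-fold and 48% of 2-fold changes were called, with 12 unchanged genes.

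The members and gene lists were chosen with earlier results of these data known. Genes were named if they were among the 12 extremes of fold change on either side (called, not overlapping, and with each library of the higher group at 10 CPM or more), the 8 with the largest difference in mean CPM, up to 4 of each list by mean level and up to 4 by fold change, TEC genes fixed by name, or markers of other cell types. Genes without a proper symbol were skipped in the first 2 sets. Where few members of a list went one way, or a promoter is shown, the genes were named after their values were seen. Shared sequence is the share of 50-base words from the last 500 bases of a gene's transcripts found in other genes. Promoters were taken from a RefSeq table (GRCm38.p6). With 2 libraries per group, labelled as biological replicates, the p-values rest on a spread estimated across genes and all 4 groups of the fit. Results of some genes are not reported here.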

Additional observations from a re-analysis of the deposited data

How the results depend on the processing

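All 5724 calls kept their direction under each alternative that gave a value for them. As the groups did not overlap for 5720 of them, leaving out a library could hardly change the direction. Of the 5724, 4862 were still called with total counts alone, 5307 with DESeq2's test and 5452 with limma-voom. The number of genes higher and lower was 2811 and 2907 with DESeq2's size factors, 3893 and 2023 with total counts alone, 2625 and 2728 with DESeq2's test, 2729 and 3041 with limma-voom, and 2926 and 2864 with no filter. It was 2242 and 2123 of 8744 genes with a mean of at least 10 CPM, 2794 and 2766 with the filter on 8 libraries, and 2862 and 2891 with the 4 libraries alone. Counting only calls of at least 2-fold it was 2031 and 1844. Replicate numbers were shared between groups, but the correlation of deviations was between 0.03 and 0.16 over the pairs of groups (0.13 for D3 organoids and 2D), and only some exceeded 0.1, so the samples share a number. With the replicate block 2978 genes were higher and 3059 lower, and with the block on 4 libraries 2955 and 3059. Leaving out a library, where the lone sample of a group is assumed to vary like the other groups, gave 2152 to 2285 higher and 2161 to 2354 lower.

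Medians of 4 lists changed sign. The cortical list went to 0.19 with total counts, 1.46 with a mean of at least 10 CPM and 0.0086 without 2D replicate 1 (lowest -0.1372 when a library was left out). The list of cytokines and homing signals went to 0.23, 1.64 and 0.74 under the same settings, to 0.0285 with limma-voom, to 0.001 with the replicate block on 4 libraries, to 0.06 without 2D replicate 2 and to 0.46 without D3 organoids replicate 1, and was -0.4202 without D3 organoids replicate 2. Notch and Wnt genes went to 0.0341 with total counts, 0.39 with a mean of at least 10 CPM and 0.21 without 2D replicate 1 (-0.6147 without 2D replicate 2), and amino acid genes to 0.0269 with total counts. The filter at 10 CPM tests fewer members, and the cause of the other changes was not tested. Of the genes named by rule, the calls of *Tmsb4x*, *Ctnnb1*, *Erbb3*, *Mvk*, *Dhcr7*, *Igf2bp2* and *Atp5f1a* were each lost without at least 1 of the libraries, as were those of *Ccl25*, *Epcam*, *Il7* and *Sparc*. Over the whole promoter window instead of its upstream bases, the share of all windows was 1.63% for the CArG box, 14.7% for CATTCC and 7.81% for TGANTCA. Genes near the floor of 3 counts limit what can be compared, since a gene absent at this depth may still be expressed.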

Other observations

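Some further gene families were split or moved together between the formats. They were chosen after their values had been seen, so their counts are descriptions. Of 10 tested genes of the p200 family, interferon-inducible genes in a cluster on chromosome 1, 3 were higher in D3 organoids, 6 were lower and 1 was not called. *Ifi206*, *Ifi208* and *Ifi213* had no count in 2D. In D3 organoids *Ifi206* was at 16.3 and 13.7 CPM, *Ifi208* at 29 and 19.5 CPM and *Ifi213* at 3.5 and 4.57 CPM. *Ifi202b* lay the other way, at 171 and 147 CPM in 2D and 5 and 3.6 CPM in D3 organoids, as did *Ifi204*, at 22.4 and 20.1 CPM in 2D and 0.333 and 0 CPM in D3 organoids, and *Ifi205*, at 18.8 and 15.5 CPM in 2D with no count in D3 organoids. Members of this family share 3′ sequence, as given above for *Ifi206* and *Ifi208*, and *Ifi205* and *Ifi211* share 38.9% and 79.4% of their words with related genes, so the split is uncertain.

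Flavin-containing monooxygenases and mu-class glutathione S-transferases oxidise or conjugate foreign compounds, and their genes were mostly higher in organoids. All 4 tested flavin-containing monooxygenase genes were called higher, with *Fmo2* at 345 and 322 CPM in D3 organoids and 1.26 and 1.82 CPM in 2D (log2 fold change 7.74, SE 0.23, adjusted p = 5.5e-12), beside a mean of 1109 CPM in D7 organoids and 0.797 CPM *in vivo*. Of 6 tested mu-class glutathione S-transferase genes 5 were higher and 1 was not called, with *Gstm1* at 506 and 466 CPM against 22.1 and 18.6 CPM (log2 fold change 4.58, SE 0.20, adjusted p = 1.0e-10). The genes of type IX collagen, *Col9a1*, *Col9a2* and *Col9a3*, and of type XIV collagen, *Col14a1*, were higher too, with *Col9a1* at 92.3 and 108 CPM against 1.44 and 0.182 CPM (log2 fold change 6.91, SE 0.46, adjusted p = 6.7e-09). The neurotrophin receptor genes *Ntrk2* and *Ntrk3* were higher along with *Ngfr*. *Ntrk2* was at 1.08 and 0.182 CPM in 2D and 54 and 49.6 CPM in D3 organoids, and *Ntrk3* at 0 and 0.182 CPM in 2D and 16.8 and 17 CPM in D3 organoids.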
